A study of Homo sapiens with 4 samples.

Results

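ATP-binding cassette (ABC) exporters are membrane pumps that use ATP to move compounds out of the cytosol, and 9 of their genes, which carry drugs and metal conjugates, were examined here out of 61541 genes in the count table. They were picked by name as pumps of drugs and metal conjugates, with earlier results of these data known: ABCC1, ABCC2, ABCC3, ABCC4, ABCC5, ABCC10, ABCB1, ABCB6 and ABCG2. All 9 matched exactly 1 Ensembl identifier each. RNA sequencing had been performed on MDA-MB-231, an established human breast cancer line, in 2 groups with 2 libraries each (n = 2). Control cells were the parental line, serially passaged in ordinary medium. Cadmium-resistant cells were the same line, selected by passage in rising cadmium sulfate and held at 10 µM. No briefly exposed group was included. Libraries are called control 2, control 3, cadmium 1 and cadmium 2 after their columns, since the control columns carry other numbers than the control labels.

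Cadmium enters cells as a divalent ion and binds thiols, above all those of metallothioneins and glutathione. Pumps of the ABCC subfamily, also called multidrug resistance-associated proteins, export glutathione, glucuronide and sulfate conjugates, and yeast and plant relatives carry glutathione-bound cadmium into the vacuole. ABCB1 (P-glycoprotein) and ABCG2 (breast cancer resistance protein) export unmodified drugs and make tumor cells resistant to chemotherapy. ABCB6 transports porphyrins, the precursors of heme. The comparison asked whether cells living in cadmium held more or less transcript of these pumps than parental cells.

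The exporters differed widely in level, and no member passed the test between the groups. ABCC1 and ABCC3 held most of the exporter transcripts, ABCC10, ABCC4 and ABCC5 were at a middle level, ABCG2, ABCC2 and ABCB6 were low, and ABCB1 was at the limit of detection. ABCC2 had the largest fold change among the 8 members that could be tested, 1.87-fold higher in cadmium-resistant cells, and did not pass after adjustment over all genes. ABCC3 stood out for the distance between the 2 controls, which was larger than the distance between the groups.

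Libraries held 51934729 to 61916007 reads assigned to genes, so that 3 counts, the limit that a count of 0 allows, were 0.0485 to 0.0578 CPM (the count scaled to a fixed library total). Mates of a pair were counted separately, and 70.6% to 71.5% of the low counts, from 1 to 20, were even. Intervals from counts alone are therefore too narrow. The controls were less alike than the cadmium libraries. Among 12924 genes with a mean normalized count (the count divided by the size factor of its library) of at least 100, more than 2-fold differences between the controls were seen for 14.2%, and for 0.317% within the cadmium pair. Levels are given as TPM, the count per exon length scaled to the same total in every library. The 6 mesenchymal markers of MDA-MB-231 (VIM, CD44, CAV1, AXL, LGALS1 and FN1) summed to 5503 to 6437 TPM in each library. The 6 receptor and epithelial markers expected to be low summed to 142 TPM in control 2, against 87.1 in control 3 and 75.8 and 72.3 under cadmium. EPCAM, an epithelial adhesion molecule among them, was at 71.9 TPM in control 2 and 21.3 in control 3, with the cadmium libraries close to the latter. CDH1, another epithelial marker of this list, was alone in going the other way. It was at 1.27 TPM in control 2 and 7.91 in control 3, against 2.19 and 1.49 under cadmium. The 6 markers of leukocytes, endothelium and fibroblasts summed to 5.58 and 17.8 TPM in control 2 and control 3, against 12.4 and 12.7 TPM under cadmium, and CD3E among them was at 0. Nothing in the sources used here says whether the libraries came from separate cultures beyond the label of the controls as biological replicates, and p-values measure only the spread between these libraries.

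The sequence before an annotated transcription start is shown for 3 members whose cadmium and control libraries did not overlap, ABCC2, ABCC10 and ABCG2. For the fourth, ABCB6, the whole window lay in annotated exons and is not printed. Further windows of ABCC10 and ABCG2, which held no printable match, are also left out. Upstream windows of 250 bases were taken from RefSeq (GRCh38.p14), which held 13 windows for 7 of the 9 genes, and only bases outside every exon of the count table are printed, 5′ to 3′ on the strand of the gene. Capitals mark matches, on either strand, to the metal response element core that MTF-1 is known to bind, searched as TGCACNC and TGCGCNC, and to the antioxidant response element core that NRF2 is known to bind, searched as TGACNNNGC. No printed match overlapped another.

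ABCC2, chr10:99782390-99782639, plus strand: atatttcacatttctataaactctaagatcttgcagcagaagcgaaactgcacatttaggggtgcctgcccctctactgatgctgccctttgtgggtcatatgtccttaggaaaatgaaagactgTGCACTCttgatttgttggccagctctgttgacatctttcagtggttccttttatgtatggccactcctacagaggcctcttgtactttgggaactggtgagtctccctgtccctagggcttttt

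ABCC10, chr6:43427390-43427540, plus strand: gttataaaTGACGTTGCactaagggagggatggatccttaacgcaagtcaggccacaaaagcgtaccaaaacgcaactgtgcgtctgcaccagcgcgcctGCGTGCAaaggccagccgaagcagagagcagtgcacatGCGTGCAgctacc

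ABCG2, chr4:88159324-88159540, minus strand: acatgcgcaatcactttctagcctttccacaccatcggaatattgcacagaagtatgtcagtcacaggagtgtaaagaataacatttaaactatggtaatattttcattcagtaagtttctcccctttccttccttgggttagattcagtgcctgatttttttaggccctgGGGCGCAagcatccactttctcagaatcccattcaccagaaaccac

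In ABCC2 the single match was to the first metal response form, 125 to 119 bases before the start. The ABCC10 window shown held an antioxidant match 143 to 135 bases before its start and 2 metal response matches, at 51 to 45 and at 13 to 7 bases. Its printed part lies within the span of the gene (43427366 to 43450427). The window of another start, with bases outside exons at 43427758 to 43427855, held no match. The ABCG2 window shown belongs to 1 of 5 annotated starts and held a metal response match 79 to 73 bases before it. It lies within the span of the gene (88090150 to 88231628). A window of another start had such a match within exon bases. The remaining ABCG2 windows held none, among them the one at 88231629 to 88231876, next to the upstream end of that span. Over the 7 genes with a window, 4 held a metal response match and 3 an antioxidant match. Of 35116 windows of the same length in all, 24.8% held a metal response core and 10.9% an antioxidant core, and genes with several windows had more bases to match in. These are matches of letters and carry no information on binding.

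Levels of different genes were compared in TPM, which corrects for exon length. ABCC1 was highest with a mean of 89.2 TPM over the 4 libraries, followed by ABCC3 with 54.8, ABCC10 with 23.3, ABCC4 with 22.5, ABCC5 with 15.7, ABCG2 with 2.42, ABCC2 with 1.81, ABCB6 with 1.01 and ABCB1 with 0.0138. The libraries of neighbours in this order overlapped for ABCC1 and ABCC3, for ABCC10 and ABCC4, for ABCG2 and ABCC2, and for ABCC2 and ABCB6. Within libraries, ABCC2 was above ABCB6 in 4 of 4, while each of the other 3 orders held in 3 of 4. A gap without overlap separated ABCC5 from ABCG2, a 6.47-fold difference in mean TPM. The order within the low group also depended on annotation. ABCB6 shares 2841 of its 5205 exon bases, 54.6%, with a readthrough gene on the same strand (ENSG00000284820), which had 0 to 4 reads, and reads in bases of 2 genes are dropped by the counting. Over its 2364 unshared bases ABCB6 had 2.22 TPM, which would place it above ABCC2. No other member shared more than 0.940% of its exon bases with another gene.

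**Figure D1:**
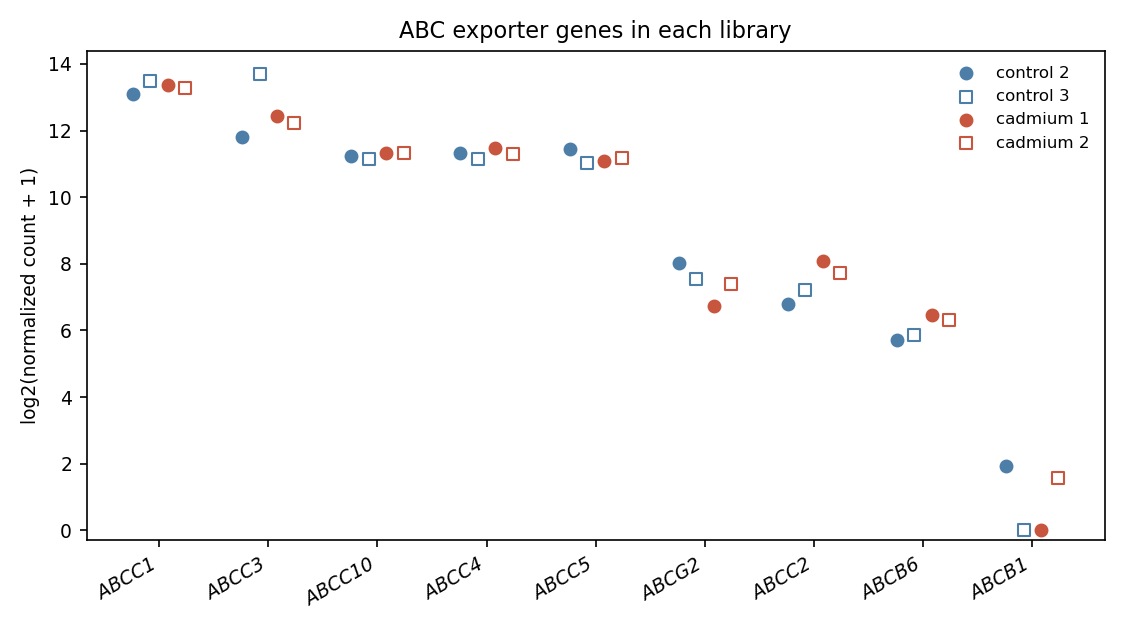
Normalized count of each exporter gene in each library, as log2 of the count plus 1 on the vertical axis, with genes ordered by mean TPM. Points are single libraries. ABCC3 shows the widest gap between control 2 and control 3 among the genes above the detection limit, and ABCB1 lies at or below 3 counts in every library.

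The 9 genes together had 165 TPM in control 2 and 274 in control 3, while the cadmium libraries had 212 and 191. Both cadmium libraries thus lay between the controls. ABCC1 made up 37.7% to 45.0% of the sum in each library. ABCC3 made up 16.3% in control 2 and 39.7% in control 3, against 21.3% in cadmium 1 and slightly less in cadmium 2. Without ABCC3 the sums were 139 and 166 TPM in the controls and 167 and 153 TPM in the cadmium libraries, and the groups still overlapped.

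**Figure D2:**
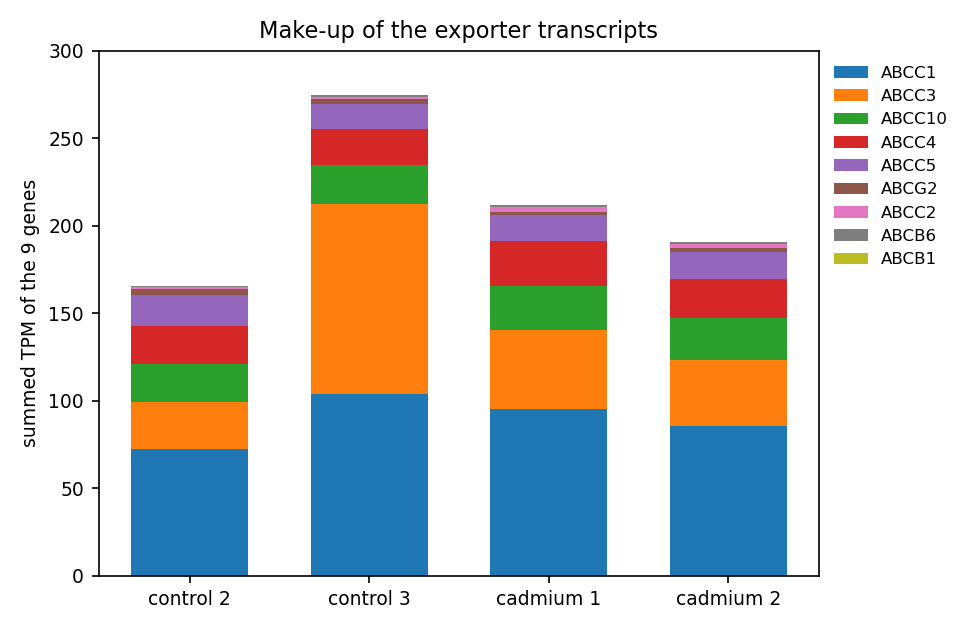
Stacked bars of the TPM of the 9 genes in each library, on an axis that starts at 0. The tallest bar is control 3 at 274 TPM, and the ABCC3 segment accounts for most of its excess over control 2 at 165 TPM.

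Across all genes DESeq2 called 225 of 19816 tested genes at an adjusted p-value below 0.1, which is 1.14%. Of the 9 exporters 8 passed the filter on mean count and 0 were called, where 1 had an unadjusted p-value below 0.05 (6.92% of all tested genes). edgeR and limma-voom called 0 exporters, and 0 of the 19241 genes they tested (0.0%), so that this count carries no information on the exporters. Before adjustment 1 exporter was below 0.05 with each of them. The share of all genes called rose to 14.8% without control 2 and 31.2% without control 3, and was 0.114% without cadmium 1 and 0.107% without cadmium 2. A call gained or lost when a library is left out is to be read against these shares. Both cadmium libraries lay above both controls for 3 of the 8 (ABCC2, ABCC10 and ABCB6), against 20.3% of all tested genes. Both lay below for 1 of the 8 (ABCG2), against 19.9%. The fold change was above 1 for 5 and below 1 for 3 of the 8. Their median log2 fold change was 0.07, and that of all tested genes was -0.02. With 8 genes, shares of this kind are coarse, and none is a result about the exporters as a group.

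**Figure D3:**
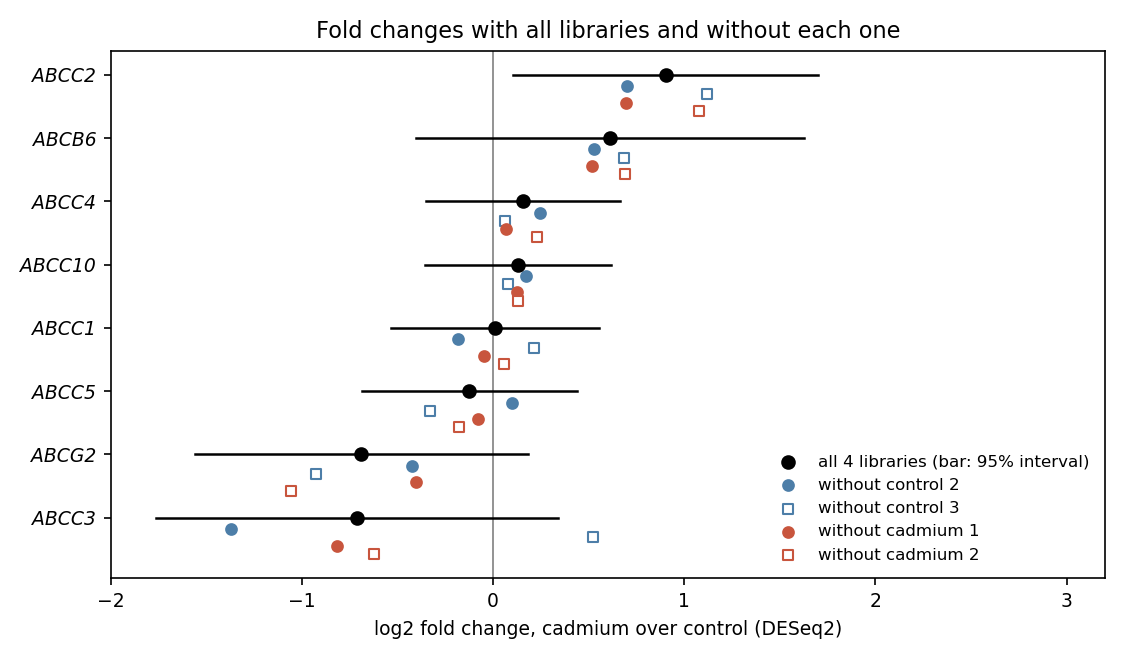
DESeq2 log2 fold change of the 8 tested exporters, with black points and bars for all 4 libraries and the 95% interval, and colored points for the fit without each library. ABCC3 is the gene whose points fall furthest apart, from -1.37 without control 2 to 0.52 without control 3, and ABCC2 has the highest fold change, 0.90.

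ABCC1 (ENSG00000103222, chromosome 16, 15949138 to 16143257, hg38, plus strand) encodes MRP1, a main exporter of glutathione conjugates and of glutathione itself. Normalized counts were 8737 for control 2 and 11573 for control 3, with 10584 and 9854 for the cadmium libraries. Both cadmium libraries lay between the controls. Group means were 10155 ± 2006 for control and 10219 ± 516 for cadmium (SD, n = 2 per group). The fold change was 1.01 with a 95% interval of 0.691 to 1.47 (DESeq2 adjusted p = 1.00). The sign of the log2FC was not stable, at -0.18 without control 2, -0.05 without cadmium 1 and 0.21 without control 3.

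ABCC2 (ENSG00000023839, chromosome 10, 99782640 to 99852594, plus strand) encodes MRP2, which exports conjugates across the apical membrane of liver, kidney and gut cells and was a minor transcript here. It had 116 and 139 reads in the controls against 273 and 212 in the cadmium libraries, or normalized counts of 110 and 148 against 272 and 209. All cadmium values exceeded all control values. The log2 ratio of a cadmium to a control library ranged from 0.50 to 1.30 over the 4 pairings. The DESeq2 log2 fold change (log2FC) was 0.90 (SE 0.41), and the 95% interval of the fold was 1.07 to 3.25. The DESeq2 p-value was 0.0268 before adjustment and 0.565 after it. The direction was the same in every alternative, while the adjusted p-value ranged from 0.0295, without control 3, to 1.00, without cadmium 1. Without control 3 a single control is left, its spread is taken from the cadmium pair, and 31.2% of all genes were called.

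Among the other ABC genes, those whose pattern over the 4 libraries was nearest to ABCC2 were ABCC9, ABCB4 and ABCB6, out of 36 compared by the Euclidean distance of centred log2(normalized count + 1). The distances were 0.257, 0.315 and 0.381. ABCC9, a regulatory subunit of potassium channels, had 23 and 35 reads in the controls and 57 and 44 in the cadmium libraries. ABCB4, a phospholipid exporter, had 12 and 12 reads against 28 and 17. All 3 are genes with few reads, and with 4 libraries a small distance says only that the genes order these libraries in a like manner.

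ABCC3 (ENSG00000108846, chromosome 17, 50634777 to 50692253, plus strand) encodes MRP3, a basolateral exporter of glucuronides and bile salts. Its normalized counts were 3579 in control 2 and 13398 in control 3, a 3.74-fold difference between libraries of 1 group. The cadmium libraries had 5519 and 4835, between the controls. The log2 ratio of the controls, 1.90, was larger in size than that of 95.8% of the 12924 expressed genes. With all libraries the log2FC was -0.71 (SE 0.54, DESeq2 adjusted p = 0.958). Without control 2 it was -1.37 (adjusted p = 7.22e-22), and without control 3 it was 0.52 (adjusted p = 0.00220), so that each control by itself gave a call in the opposite direction, in fits that called 14.8% and 31.2% of all genes. As given above, the summed markers of other cell types were higher in control 3 than in control 2. The sum of the receptor and epithelial markers was lower, although CDH1 among them was higher. The part of either sum in the ABCC3 difference was not tested.

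ABCC4 and ABCC5 export cyclic nucleotides and nucleotide analogs, and both had fold changes near 1. ABCC4 (ENSG00000125257, chromosome 13, 95019835 to 95301475, minus strand) had normalized counts of 2552 and 2266 in the controls and 2836 and 2534 in the cadmium libraries. The groups overlapped, and the fold change was 1.11 with a 95% interval of 0.783 to 1.59. ABCC5 (ENSG00000114770, chromosome 3, 183919934 to 184017939, minus strand) had 2794 and 2090 in the controls and 2163 and 2320 in the cadmium libraries, all cadmium values being within the control range. Its fold change was 0.918 with a 95% interval of 0.622 to 1.35. The DESeq2 adjusted p-value was 1.00 for each. The log2FC of ABCC5 turned from -0.12 to 0.10 without control 2.

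ABCC10 (ENSG00000124574, chromosome 6, 43427366 to 43450427, plus strand) encodes MRP7, which exports lipophilic drugs such as taxanes. It was the steadiest of the 9 genes. Normalized counts were 2424 and 2284 in the controls and 2581 and 2581 in the cadmium libraries. The cadmium values exceeded both controls by a small margin, with log2 ratios of 0.09 to 0.18 over the 4 pairings, and the fold change was 1.10 with a 95% interval of 0.782 to 1.54 (DESeq2 adjusted p = 1.00). ABCC10 lies in a stretch of chromosome 6 in which most genes were higher in the cadmium libraries. Its 40 nearest expressed genes (42744498 to 44450425) had a median log2FC of 0.32, with 34 of them above 0. The difference of ABCC10 from that median was -0.19 on the log2 scale, so its direction against its surroundings is opposite to its direction against the controls.

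The other exporters lay in less shifted surroundings. The median log2 fold change of the 40 nearest expressed genes was -0.08 around ABCC1, -0.11 around ABCC2, -0.08 around ABCC3, 0.04 around ABCC4, -0.11 around ABCC5, -0.01 around ABCB6 and -0.05 around ABCG2. The differences of ABCC2 and ABCB6 from their neighbours were 1.02 and 0.62, and those of ABCC3 and ABCG2 were -0.63 and -0.64. Around ABCB1 on chromosome 7 the median was -0.22.

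**Figure D4:**
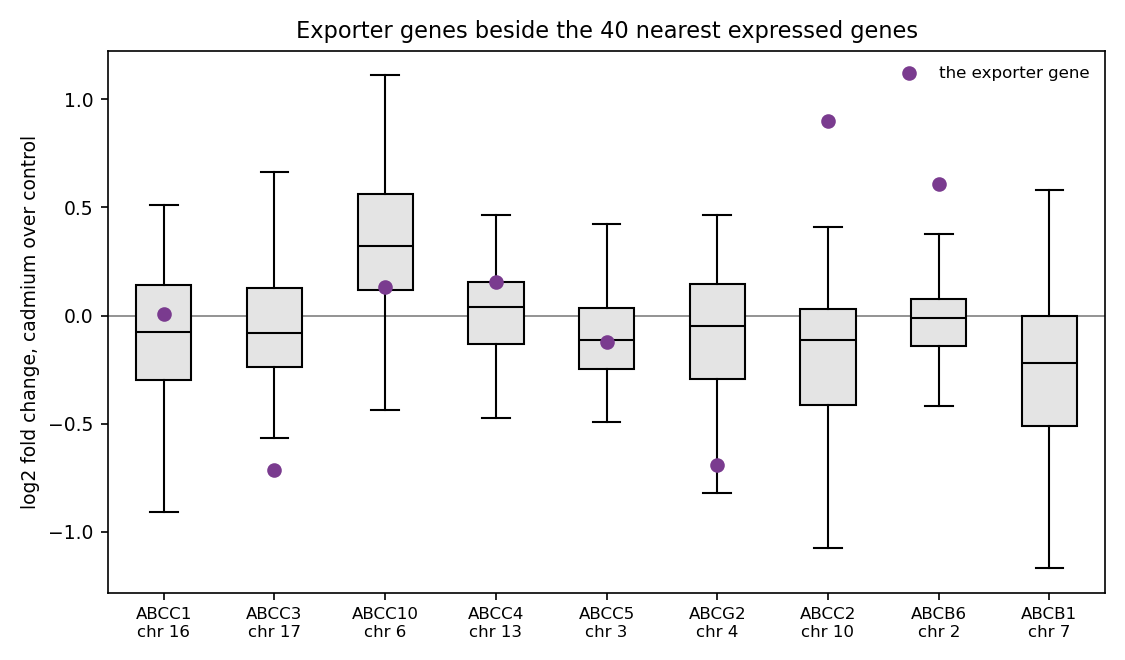
DESeq2 log2 fold change of each exporter gene (purple point) beside a box plot of its 40 nearest expressed genes, with the median, the quartiles and whiskers to 1.5 times the box, outliers not drawn. ABCC10 sits below the median of its neighbours at 0.32. ABCC2 and ABCB6 sit above the boxes, and ABCC3 and ABCG2 sit below them. No point is drawn for ABCB1, which was at the detection limit.

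ABCB1 (ENSG00000085563, chromosome 7, 87503017 to 87713323, minus strand), the P-glycoprotein gene and the best known cause of multidrug resistance in selected cell lines, had 3 and 0 reads in the controls and 0 and 2 in the cadmium libraries. A difference between the groups was therefore not detectable at this depth and no fold is given. A count of 3 would be at most 0.0388 TPM for this gene in any library. The gene RUNDC3B, on the opposite strand, overlaps its span but shares 0 exon bases with it.

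ABCG2 (ENSG00000118777, chromosome 4, 88090150 to 88231628, minus strand), which exports drugs, urate and porphyrins, was the 1 exporter with lower values in both cadmium libraries. Normalized counts were 258 and 184 in the controls and 106 and 168 in the cadmium libraries. The gap between the nearest pair, control 3 and cadmium 2, was small, at a log2 ratio of -0.13, and that of the farthest pair was -1.27. The log2FC was -0.69 (SE 0.45), and the 95% interval of the fold ran from 0.339 to 1.14. The DESeq2 p-value was 0.121 before and 0.901 after adjustment, so this difference did not pass the test. Leaving out each library moved the log2FC between -1.06 and -0.40 without a call. The cadmium libraries differed 1.58-fold from each other, the largest such ratio among the 8 testable members.

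ABCB6 (ENSG00000115657, chromosome 2, 219209772 to 219218994, minus strand), the porphyrin transporter, had 54 reads in each control and 88 and 79 in the cadmium libraries. Normalized counts of 51.1 and 57.4 stood against 87.6 and 78.0, with no overlap. The fold change was 1.53 with a 95% interval of 0.755 to 3.08 (DESeq2 adjusted p = 0.995). The interval spans both directions, and the read counts behind it are the lowest among the testable members.

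The remaining 39 ABC genes showed 1 call. Of the 29 that passed the filter on mean count, 0 were called higher and 1 lower, with both cadmium libraries above the controls in 7 and below them in 7, against 20.3% and 19.9% of all genes. The call was ABCG1, which exports cholesterol to lipoproteins. Control reads were 53 and 466 and cadmium reads 9 and 16, and the log2FC was -4.46 (SE 0.91, DESeq2 adjusted p = 4.24e-04). That size depended on control 3, without which the log2FC was -2.03 (adjusted p = 0.169). The call was also lost without cadmium 1 (adjusted p = 0.117), with edgeR (adjusted p = 0.674) and with limma-voom (adjusted p = 0.697), which called no gene of the table. The log2FC stayed at -4.12, -4.45 and -3.62 in those 3 fits. Without control 2, 2 of these genes were called higher and 7 lower, and without control 3, 4 were called higher and 4 lower, in fits that called 14.8% and 31.2% of all genes, and nothing is read from those counts.

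Other ABC genes followed their own courses. At an unadjusted p-value below 0.05, 6 of the 29 were lower and 0 higher, against 3.88% lower and 3.04% higher of all tested genes. Among these were ABCG1, ABCA3 and, named after their values were seen, ABCA1, ABCA2 and ABCB10. ABCA3, a lipid transporter known from lung surfactant, had a log2FC of -0.89 (SE 0.31, DESeq2 adjusted p = 0.209). In the other direction TAP2, a subunit of the peptide transporter for antigen presentation, had 0.49 with 0.757, and ABCB9, a lysosomal peptide transporter, 0.32 with 0.995. ABCA3 and TAP2 were called when either control was left out, and ABCF1 without control 2. Those fits called far larger shares of all genes. The most abundant of the 39 were ABCF1, ABCE1, ABCF3 and TAP1, at 236, 101, 67.6 and 59.6 mean TPM. The first 3 encode soluble factors of translation rather than pumps. Their log2 fold changes were 0.30, 0.13, -0.12 and 0.08, all at an adjusted p of 1.00 in DESeq2. The median over the 29 genes was -0.12.

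**Figure D5:**
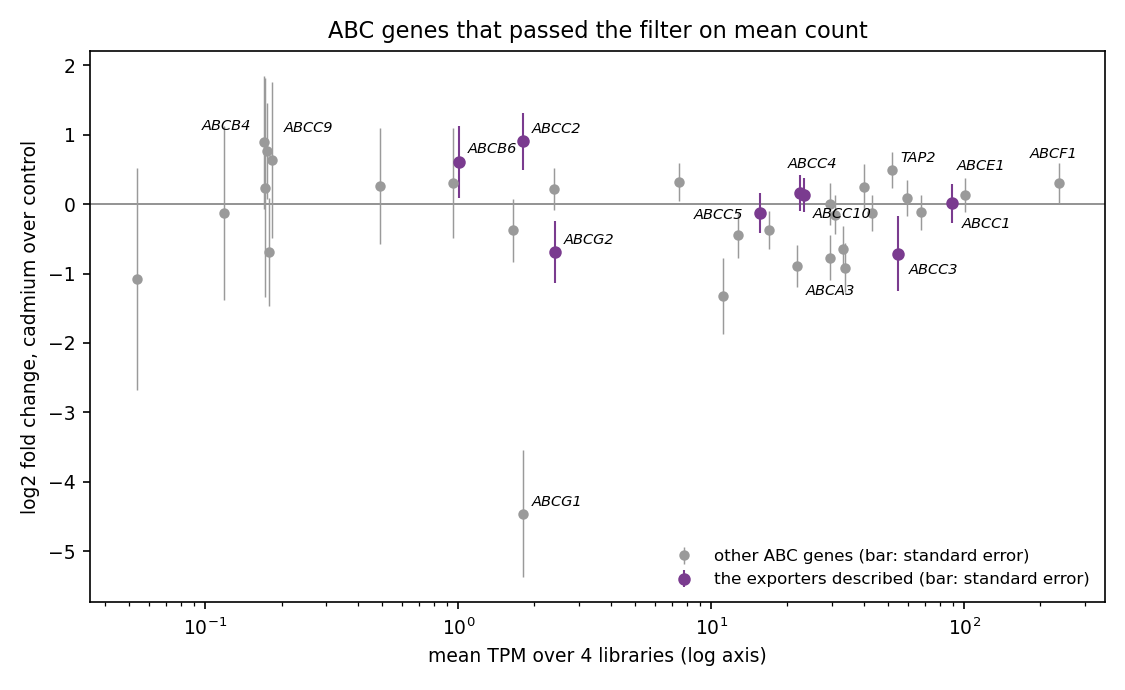
DESeq2 log2 fold change (vertical axis, bars give the standard error) against mean TPM (log axis) for the 29 other ABC genes in grey and the 8 exporters in purple. ABCG1 lies far below the rest at -4.46, and the exporters at over 10 TPM lie near 0 except ABCC3 at -0.71.

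Genes that make the conjugates these pumps export were read from a list of 20 for glutathione supply and conjugation, of which 19 were tested. The list had 1 call, SLC7A11, which imports cystine for glutathione synthesis and had normalized counts of 1860 and 2996 in the controls and 8075 and 9674 under cadmium (log2FC 1.87, SE 0.33, DESeq2 adjusted p = 1.77e-05). The log2FC was 1.56 to 2.24 when each library was left out. The adjusted p-value was 0.168 without cadmium 1 and 0.532 without cadmium 2, where 0.114% and 0.107% of all genes were called, and SLC7A11 was not called with edgeR or limma-voom, which called none. CHAC1, which degrades glutathione, had a log2FC of 2.01 (SE 1.12, adjusted p = 0.793), its controls being at 212 and 1052 reads. Without control 2 its log2FC was 1.24, and without control 3 it was 3.71. CHAC1 was called in the latter fit, which called a far larger share of all genes. Among the glutathione transferases GSTK1 had a log2FC of -0.90 (adjusted p = 0.120), and GSTM4 one of -0.80 with 0.323. GSTK1 was called with a minimum of 10 counts in 2 libraries (DESeq2 adjusted p = 0.0739). GSTK1 and GSTM4 were called when either control was left out, as was SLC7A11, each in an unchanged direction. GSTP1 and GGT5 were called in both fits too, but with the direction reversed between them. Normalized counts of GSTP1 were 22854 in control 2 and 4080 in control 3, against 6537 and 7942 under cadmium. Those of GGT5 were 1751 and 10523 in the controls, against 8439 and 8356. Those fits called far larger shares of all genes. The cadmium libraries lay above the controls in 4 of the 19 genes and below them in 7, against 20.3% and 19.9% of all genes, and the median log2 fold change was -0.12.

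Metal and drug transporters outside the ABC family had 0 calls among 11 genes, with 1 higher and 1 lower at an unadjusted DESeq2 p-value below 0.05, and edgeR and limma-voom called no gene of the table. For SLC30A1, the zinc exporter of the plasma membrane, normalized counts were 2174 and 4616 in the controls against 6566 and 7372 under cadmium. Its log2FC was 1.04 (SE 0.40, adjusted p = 0.339), with a range of 0.59 to 1.67 when each library was left out. SLC40A1, the iron exporter ferroportin, had a log2FC of -0.94 (adjusted p = 0.489). SLC39A14, an importer of zinc that also carries cadmium, had -0.41 with 0.846, and the divalent metal importer SLC11A2 had 0.15 with 1.00. SLC30A1 and SLC39A14 were each called in an unchanged direction when either control was left out, in fits that called far larger shares of all genes. SLC47A1 was called in both fits too, but lower without control 2 and higher without control 3. Its normalized counts were 94.6 in control 2 and 639 in control 3, against 272 and 393 under cadmium. The median over the list was -0.14.

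Regulators known to act on exporter genes had 0 calls among 11 tested of 13, and 0 at an unadjusted p-value below 0.05 with DESeq2. The nuclear receptor NR1I3 had a log2FC of 1.36 at 8 to 44 reads per library (DESeq2 adjusted p = 0.916), and SP1 had 0.23. FOXO1 and MTF1 had -0.58 and -0.28, with adjusted p-values of 0.943 and 1.00. The signs of SP1 and MTF1 turned without control 2. Leaving out each library moved the log2FC from 0.84 to 2.17 for NR1I3 and from -0.04 to 0.56 for SP1. The ranges were -0.98 to -0.04 for FOXO1 and -0.61 to 0.13 for MTF1. Some of the 11 were called without control 2 and some without control 3, in fits that called far larger shares of all genes. Only HIF1A was called in both, lower without control 2 and higher without control 3. Its normalized counts were 22493 in control 2 and 34450 in control 3, with 27178 and 29175 under cadmium. Proteins that anchor exporters in the membrane had 0 calls among 5, with 1 higher and 0 lower at an unadjusted p-value below 0.05. MSN (moesin), which links membrane proteins to actin, had a log2FC of 0.80 (DESeq2 adjusted p = 0.570), at 0.41 without control 2 and 1.31 without control 3 and called both times, while EZR (ezrin) had 0.08 and the scaffold gene NHERF1 had -0.34, with adjusted p-values of 1.00 and 0.951. NHERF1 was also called when either control was left out.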

How the data were processed

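Total RNA of MDA-MB-231 cells was sequenced as read pairs by the authors, who trimmed adaptors with bbduk, aligned to hg38 with hisat2 and counted with featureCounts 2.0.1 on an Ensembl annotation. The authors deposited whole-number read counts, 1 value per gene and library, without normalization. Only annotation and output options were set, so strand was ignored, mates were counted separately and reads of several places or genes were dropped. Gene symbols matched 61369 of 61541 identifiers.

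DESeq2, the tool the study names, was run on the whole table in version 1.42.0 (R 4.3.3). The settings were chosen here (group as the only term, two-sided Wald test, threshold 0.1 on the Benjamini-Hochberg adjusted p-value; independent filtering removed mean normalized counts below 7.69). Intervals are 95% from the standard error. TPM used the exon length of the table. Alternatives were edgeR 4.0.16 (quasi-likelihood), limma 3.58.1 (voom), other scalings, filters and thresholds, halved counts, removal of a length trend, and leaving out each library.

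The members and lists were chosen with earlier results of these data known. Named genes were the 9 members and, per list, called genes, the 2 with the lowest p-value in each direction, the 4 most abundant other ABC genes and the 3 nearest in pattern to the member with the lowest p-value. Intervals and limits cover counting or library error only. Genes matched through identifiers; coordinates are 1-based on hg38. RefSeq windows are on GRCh38.p14, the same assembly.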

Additional observations from a re-analysis of the deposited data

How the results depend on the processing

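No paired analysis was possible because numbers 2 and 3 on the columns of the controls differ from those in the labels. The 225 calls over all genes became 0 with edgeR and 0 with limma-voom, with 1422 and 1423 genes below 0.05 before adjustment, and ranged from 14 to 6189 when each library was left out. Calls among the 9 exporters ranged from 0 to 2 without each library (ABCC3 without control 2, ABCC2 and ABCC3 without control 3) and were 0 under every other alternative. A library left alone in its group is assumed to vary like the other group.

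Leaving out each library moved the log2 fold change from -0.18 to 0.21 for ABCC1, 0.70 to 1.12 for ABCC2, -1.37 to 0.52 for ABCC3, -0.33 to 0.10 for ABCC5 and -1.06 to -0.40 for ABCG2. It also turned the sign of 4 named genes, with ranges of -0.054 to 0.20 for TAP1, -0.040 to 0.56 for SP1, -0.61 to 0.13 for MTF1 and -0.0012 to 0.16 for EZR. Against its neighbours ABCC10 was at -0.19. The planned scalings, filters, halved counts and length correction kept the direction of all 8 tested exporters. With shared exon bases left out of the length, chosen after seeing the data, ABCB6 ranked 7 and ABCC2 ranked 8 in level. The depth allowed no statement on ABCB1.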

Other observations

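Differences between the controls were not particular to ABCC3 among the more abundant ABC genes. Of 28 ABC genes at a mean of 100 normalized counts or more, 4 (14.3%) differed more than 2-fold within the control pair and 0 within the cadmium pair. Over all 12924 expressed genes the shares were 14.2% and 0.317%, so the ABC genes were at the general rate. These 4 genes, named after their values were seen, were all higher in control 3. ABCA1, the cholesterol and phospholipid exporter, had 1087 normalized counts in control 2 and 3585 in control 3, against 1182 and 681 in the cadmium libraries. ABCG1 had 50.2 and 495 in the controls and 8.96 and 15.8 in the cadmium libraries. ABCA4, a retinoid transporter of the eye, had 24.6 and 164 in the controls and 115 and 117 in the cadmium libraries. ABCC3, described above, was the fourth. The cadmium libraries lay between the controls for ABCA4 and ABCC3 and below both for ABCG1, while the ABCA1 values overlapped. These are levels in 4 libraries, and the difference between the controls has no replicate check.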
